A study of Mus musculus with 16 samples.

Results

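The major histocompatibility complex (MHC) and interferon-related genes of the array were the 76 genes, of 19505 that the platform annotation names, whose symbols start with H2- or with Ifit, Ifitm, Oas, Gbp or Irf and a number, where for Oas no number was asked. The rule uses symbols and no measured value, though it was set with earlier results of these data known, and each gene had 1 probe set. The set comprised 35 H2 genes, 6 Ifit, 6 Ifitm, 12 Oas, 6 Gbp and 11 Irf genes. Not all of them are what their symbols stand for: H2-Ke6 is a dehydrogenase gene that lies in the H2 region, Irf2bp1, Irf2bp2 and Irf2bpl encode binding partners of an interferon regulatory factor or a relative of these, and Ifitm5 is known from bone. RefSeq lists Oas1b, H2-Q5, H2-Bl and H2-T10 as pseudogenes.

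Levels were measured on 16 Clariom S arrays of sorted cells from the olfactory mucosa of C57BL/6 mice that carried S100a5-tauGFP, a tau-linked green fluorescent protein under the control of an activity-dependent gene of olfactory neurons. The mice, 24 of both sexes aged 7 to 12 weeks, were kept singly in clean air for 40 h, and from 26 h on received short pulses of undecanal, a fatty aldehyde odorant, or of filtered air as vehicle. Cells were pooled from 3 mice, which gave 4 undecanal and 4 vehicle pools, each sorted into a GFP+ and a GFP- fraction. The groups, each of 4 arrays, were thus undecanal titled GFP+, vehicle titled GFP+, undecanal titled GFP- and vehicle titled GFP-. For all 16 samples the title and the characteristics gave opposite GFP signs. S100a5, which drives the reporter, averaged 15.77 ± 0.141 and 15.66 ± 0.126 in undecanal and vehicle arrays titled GFP+, and 16.73 ± 0.308 and 16.58 ± 0.26 in undecanal and vehicle arrays titled GFP- (log2 signal, SD, n = 4 each), so it was lower in the arrays titled GFP+. The fractions are therefore named by title only, and all directions below are those of the titles.

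MHC class I molecules pair an H2 heavy chain with beta-2-microglobulin and show peptides from the cell's own proteins to CD8+ T cells, and most nucleated cells can make them. MHC class II molecules pair an alpha and a beta H2 chain, and are made by B cells, dendritic cells and macrophages, which show them to CD4+ T cells. Interferons act through cell-surface receptors, Jak kinases and Stat proteins on genes such as those of the Ifit, Ifitm, Oas and Gbp families, which act against viruses and other intracellular microbes, and several interferon regulatory factors (Irf) carry the signal to DNA or are themselves induced.

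The values are deposited log2 signals. A gene was counted as above background where a group mean exceeded 4.80, the 95th percentile of the group means of 358 probe sets of vomeronasal and bitter taste receptors. By this measure 43 of the 76 genes were above background in at least 1 group and 28 in every group, and the other 33 gave no group mean above that level. Of all 22206 probe sets 14396 were above background in at least 1 group and 12685 in every group, in both cases a larger share than in the set. A difference was called where the limma p-value, adjusted over all 22206 probe sets, was under 0.05. With 4 arrays a group, precision is limited by their number.

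The largest differences among these genes were between the sort fractions. In undecanal pools 22 of 76 genes were higher and 2 lower in the arrays titled GFP+, and in vehicle pools 21 were higher and 1 lower. Over all probe sets 8.83% were called higher and 4.36% lower in undecanal pools, and 8.82% and 5.12% in vehicle pools, so that the share of the set called higher, 28.9% and 27.6%, was above that of the array, and the share called lower, 2.63% and 1.32%, was below it. The median difference of the 76 genes, titled GFP+ minus titled GFP-, was 0.23 in undecanal pools and 0.18 in vehicle pools on the log2 scale, against -0.11 over all probe sets in either. The count of lower calls changed with another scaling. When arrays were centred on their own medians, which moved the median of all probe sets by -0.36 with either agent, 21 genes were called higher and 21 lower in undecanal pools, and 20 higher and 20 lower in vehicle pools. The median of the set was then -0.13 in undecanal and -0.18 in vehicle pools, against -0.46 and -0.47 over all probe sets. The share of all probe sets called with this centring was not counted, so these counts cannot be set against the array. The same 21 genes were called higher with both agents. Gbp4 was called higher and H2-Ke6 and Ifit1bl2 lower in undecanal pools alone, and H2-M10.6 lower in vehicle pools alone, but no gene of the set passed the test of the difference between agents (the interaction, given below). Calls on probe sets below background are named as such.

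**Figure D1:**
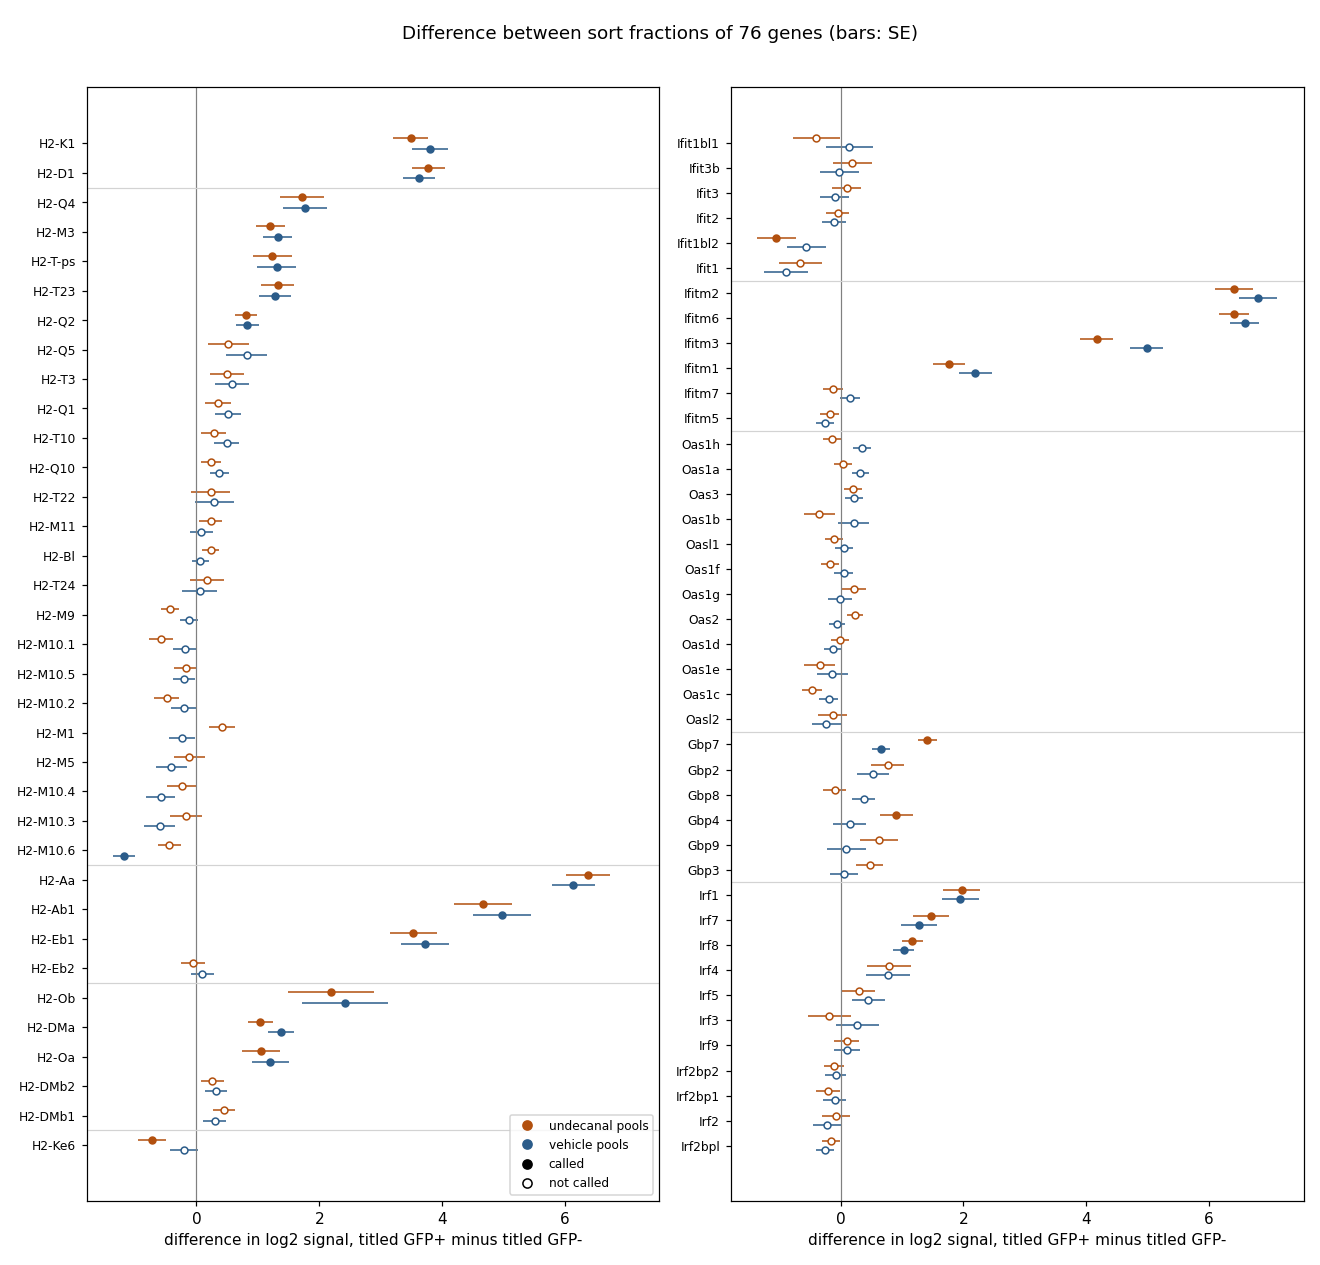
Difference in log2 signal between sort fractions (titled GFP+ minus titled GFP-, horizontal axis) of all 76 genes, ordered by role, in undecanal pools (orange) and vehicle pools (blue); bars are standard errors of the fit and filled points passed an adjusted p of 0.05. H2-K1, H2-D1, 3 class II chains and Ifitm2, Ifitm3 and Ifitm6 lie farthest to the right, and no Oas gene has a filled point.

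The classical class I heavy chains were higher in the arrays titled GFP+ of every pool. H2-K1 read 11.84, 10.70, 10.31 and 10.29 in undecanal pools and 11.26, 11.29, 10.51 and 10.74 in vehicle pools among arrays titled GFP+. Among arrays titled GFP- it read 7.70, 7.11, 7.15 and 7.24 in undecanal pools and 7.48, 6.83, 7.05 and 7.22 in vehicle pools. The 2 fractions did not overlap, and H2-K1 lay well above background in both. The difference was 3.49 (SE 0.289, limma adjusted p = 6.54e-08) in undecanal pools, an 11.2-fold difference, and 3.80 (SE 0.289, limma adjusted p = 2.1e-08) in vehicle pools.

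H2-D1 read 8.46, 8.08, 7.13 and 7.36 in undecanal and 7.97, 7.64, 7.70 and 7.58 in vehicle arrays titled GFP+, against 3.69 to 4.47 in undecanal and 3.69 to 4.56 in vehicle arrays titled GFP-. All 8 arrays titled GFP- lay below background, so H2-D1 was at least 7.78-fold higher in undecanal and at least 7.59-fold higher in vehicle arrays titled GFP+, taken against the background level (limma adjusted p = 6.31e-09 and 1.05e-08). Beta-2-microglobulin (B2m), the shared light chain of class I molecules, averaged 14.57 ± 0.362 and 14.62 ± 0.243 in undecanal and vehicle arrays titled GFP+ and 9.78 ± 0.284 and 9.51 ± 0.46 in undecanal and vehicle arrays titled GFP- (SD, n = 4 each). Its difference was 4.79 in undecanal pools (SE 0.23, limma adjusted p = 7.22e-11) and 5.12 in vehicle pools (SE 0.23, limma adjusted p = 2.88e-11).

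Of the 23 non-classical class I genes, 5 were called higher with both agents: H2-Q4, H2-M3, H2-T-ps, H2-T23 and H2-Q2. H2-T23 encodes Qa-1, a ligand of inhibitory receptors of natural killer cells. It read 9.59, 8.68, 8.12 and 7.96 in undecanal and 8.36, 8.78, 8.18 and 8.59 in vehicle arrays titled GFP+, against 7.47, 7.46, 7.16 and 6.97 in undecanal and 7.05, 7.35, 7.17 and 7.22 in vehicle arrays titled GFP-. The groups did not overlap, and the difference was 1.32 in undecanal pools (SE 0.266, limma adjusted p = 0.00167) and 1.28 in vehicle pools (SE 0.266, limma adjusted p = 0.00222).

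H2-Q4 read 5.80, 6.23, 5.11 and 4.73 in undecanal and 5.72, 5.78, 5.44 and 4.68 in vehicle arrays titled GFP+, and lay below background, between 2.67 and 4.31, in all 8 arrays titled GFP-. Against the background level H2-Q4 was at least 1.59-fold higher in undecanal and at least 1.52-fold higher in vehicle arrays titled GFP+ (limma adjusted p = 0.00198 and 0.00152). H2-M3, which presents peptides that start with formyl-methionine, read 4.71, 4.39, 4.20 and 4.75 in undecanal and 5.53, 4.63, 5.12 and 4.49 in vehicle arrays titled GFP+, against 2.86 to 3.83 in undecanal and 3.43 to 3.86 in vehicle arrays titled GFP-. Of its group means only that of vehicle arrays titled GFP+ exceeded background, against which H2-M3 was at least 1.10-fold higher in vehicle arrays titled GFP+; the measured difference was 1.20 in undecanal and 1.32 in vehicle pools (limma adjusted p = 0.00133 and 0.000537).

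H2-T-ps read 7.34, 6.20, 5.65 and 6.61 in undecanal and 6.86, 6.71, 6.36 and 5.97 in vehicle arrays titled GFP+, against 5.72, 5.08, 5.02 and 5.04 in undecanal and 5.82, 4.90, 4.62 and 5.32 in vehicle arrays titled GFP-. In undecanal pools its fractions overlapped, and its difference was 1.24 there (limma adjusted p = 0.0127) and 1.31 in vehicle pools (limma adjusted p = 0.00836). In undecanal pools the H2-T-ps call ended without pool 4 (1.13, adjusted p = 0.0762), and in vehicle pools it ended without pool 2 (1.14, adjusted p = 0.0782) or pool 3 (1.16, adjusted p = 0.0544), all by limma. H2-Q2 was called higher by 0.81 and 0.82 in undecanal and vehicle pools, but all its group means lay below background. Class I genes are near-identical copies in parts of their sequence, so the probe sets of single H2-Q and H2-T genes may share signal, and which copy was read is uncertain.

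H2-M1, H2-M9, H2-M11 and H2-M10.1 to H2-M10.6 belong to a group of class I genes known from mouse vomeronasal sensory neurons, where they are expressed with V2R receptors. Every one of these 9 genes lay below background in all group means apart from H2-M10.6 in vehicle arrays titled GFP-. H2-M10.6 read 3.76, 4.16, 3.70 and 3.89 in undecanal and 3.58, 3.68, 4.04 and 3.71 in vehicle arrays titled GFP+, against 4.58, 4.17, 4.57 and 3.94 in undecanal and 4.73, 5.08, 5.25 and 4.69 in vehicle arrays titled GFP-. The 4 vehicle arrays titled GFP- were thus the highest, and the difference was -1.18 in vehicle pools (SE 0.182, limma adjusted p = 0.000115) and -0.44 in undecanal pools (SE 0.182, limma adjusted p = 0.138). Since all arrays titled GFP+ lay below background, H2-M10.6 was at least 1.10-fold lower in vehicle arrays titled GFP+, measured against that level.

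Of the H2 genes, the class II chains H2-Aa and H2-Ab1 showed the largest fraction differences with both agents. Each window printed here is a RefSeq promoter of build GRCm38.p6, 300 bases around the gene's start, and capitals mark ATTGG on either strand (CCAAT on the other), the inverted CCAAT box that is part of class II promoters in mouse and human. H2-Aa (chr17:34287774-34288073, minus strand) holds 1 such match, at base 203 of the window, and H2-Eb1 (chr17:34305617-34305916, plus strand) holds 2, at bases 192 and 216.
H2-Aa: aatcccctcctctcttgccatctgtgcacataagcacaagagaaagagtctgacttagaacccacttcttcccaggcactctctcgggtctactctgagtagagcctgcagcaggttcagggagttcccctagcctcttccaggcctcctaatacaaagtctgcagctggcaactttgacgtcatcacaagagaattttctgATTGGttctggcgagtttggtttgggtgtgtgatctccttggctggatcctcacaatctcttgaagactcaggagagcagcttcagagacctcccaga
H2-Eb1: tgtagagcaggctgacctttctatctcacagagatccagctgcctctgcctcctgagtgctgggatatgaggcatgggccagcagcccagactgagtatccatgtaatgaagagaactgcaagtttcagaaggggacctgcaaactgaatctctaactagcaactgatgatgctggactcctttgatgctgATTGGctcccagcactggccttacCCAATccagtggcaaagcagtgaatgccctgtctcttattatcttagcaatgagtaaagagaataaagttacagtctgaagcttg
Of the 63 genes of the set with a window in the table, 40 held ATTGG, among them 3 of 3 class II chain genes and 5 of 5 peptide exchange genes. Of the set's 73 windows 58.9% held it, against 37.4% of all 32851 windows. Class I genes hold it too, with 2 of 2 classical and 15 of 18 non-classical genes, and a match describes the letters of the window and is not evidence of a bound factor.

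H2-Aa, the alpha chain of the class II molecule I-A, read 12.58, 11.79, 10.70 and 11.02 in undecanal and 12.34, 11.42, 11.38 and 11.15 in vehicle arrays titled GFP+. In arrays titled GFP- it read 5.20, 4.66, 5.35 and 5.39 with undecanal and 5.91, 5.07, 5.73 and 5.05 with vehicle, close to the background level. The fractions were far apart in every pool, by 6.37 in undecanal pools (SE 0.352, limma adjusted p = 3.68e-10), an 82.9-fold difference, and by 6.13 in vehicle pools (SE 0.352, limma adjusted p = 5.91e-10).

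Its partner H2-Ab1 read 11.33, 9.99, 8.58 and 9.63 in undecanal and 10.93, 10.69, 10.35 and 9.48 in vehicle arrays titled GFP+, against 4.52 to 6.18 in undecanal and 4.68 to 5.78 in vehicle arrays titled GFP-. H2-Eb1, the beta chain of I-E, read 9.38, 9.12, 8.03 and 7.41 in undecanal and 9.25, 8.71, 8.26 and 7.77 in vehicle arrays titled GFP+, against 4.36 to 5.58 in undecanal and 4.55 to 5.01 in vehicle arrays titled GFP-. For both the fractions did not overlap. The difference of H2-Ab1 was 4.66 in undecanal and 4.97 in vehicle pools (limma adjusted p = 9.28e-07 and 3.85e-07), and that of H2-Eb1 was 3.53 and 3.72 (limma adjusted p = 2.17e-06 and 1.07e-06), where the vehicle mean of arrays titled GFP-, 4.78, was not above background. H2-Eb2, a further beta chain gene, averaged 3.64 to 3.76 in all groups, below background, and was not called.

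The genes for exchange of class II peptides fell into 2 kinds. H2-DMb1 and H2-DMb2, beta chains of the H2-DM molecule that loads peptides, were far above background in both fractions. H2-DMb2 averaged 11.94 ± 0.263 and 11.97 ± 0.301 in undecanal and vehicle arrays titled GFP+ and 11.68 ± 0.226 and 11.65 ± 0.244 in undecanal and vehicle arrays titled GFP- (SD, n = 4 each), and H2-DMb1 had group means between 10.85 and 11.30. Neither was called in the fraction comparison, with differences between 0.26 and 0.45, though the vehicle fractions of H2-DMb1 did not overlap. Centring arrays on their medians turned the sign for H2-DMb2 with both agents and for H2-DMb1 in vehicle pools. Centring on the mature neuron list instead gave a higher call of H2-DMb1 in undecanal pools (0.70, limma adjusted p = 0.0168). It also gave a higher call of H2-DMb2 in vehicle pools (0.58, limma adjusted p = 0.034).

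H2-DMa, the alpha chain of H2-DM, was higher in the arrays titled GFP+ of 8 of 8 pools. It read 6.80, 6.64, 5.89 and 6.21 in undecanal and 6.59, 6.86, 6.59 and 6.38 in vehicle arrays titled GFP+, against 5.21 to 5.56 in undecanal and 4.68 to 5.52 in vehicle arrays titled GFP-. The difference of H2-DMa was 1.04 in undecanal pools (SE 0.208, limma adjusted p = 0.00159) and 1.38 in vehicle pools (SE 0.208, limma adjusted p = 9.28e-05).

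H2-Oa and H2-Ob encode the chains of H2-O, an inhibitor of H2-DM known mainly from B cells. H2-Ob read 8.39, 7.73, 5.20 and 5.03 in undecanal and 7.90, 8.02, 6.06 and 4.78 in vehicle arrays titled GFP+, against 4.08 to 4.65 over the 8 arrays titled GFP-. Pools numbered 1 and 2 of either agent were high and pools numbered 3 and 4 were lower, with vehicle pool 4 below background. The difference of H2-Ob was 2.19 in undecanal pools (SE 0.701, limma adjusted p = 0.0473) and 2.42 in vehicle pools (SE 0.701, limma adjusted p = 0.026), or at least 3.45-fold and 3.71-fold against the background level. In vehicle pools the H2-Ob call ended without pool 1 (1.95, adjusted p = 0.17) or pool 2 (1.93, adjusted p = 0.168), and in undecanal pools without undecanal pool 1 (1.51, adjusted p = 0.284) or 2 (1.89, adjusted p = 0.194) and without vehicle pool 1, 2 or 3 (adjusted p = 0.0534, 0.0517 and 0.0633), all by limma.

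H2-Oa read 4.90, 5.44, 4.27 and 3.54 in undecanal and 5.17, 4.68, 4.67 and 4.10 in vehicle arrays titled GFP+, and 3.33 to 3.72 over the arrays titled GFP-, with no group mean above background. Its measured difference was 1.05 in undecanal and 1.20 in vehicle pools (limma adjusted p = 0.0262 and 0.0104). The H2-Oa call ended without undecanal pool 1, 2 or 3 in undecanal pools (limma adjusted p = 0.126, 0.118 and 0.0757, differences 0.97, 0.81 and 1.08) and without vehicle pool 1, 2 or 3 in vehicle pools (limma adjusted p = 0.0522, 0.0646 and 0.0542, differences 1.11, 1.15 and 1.17).

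**Figure D2:**
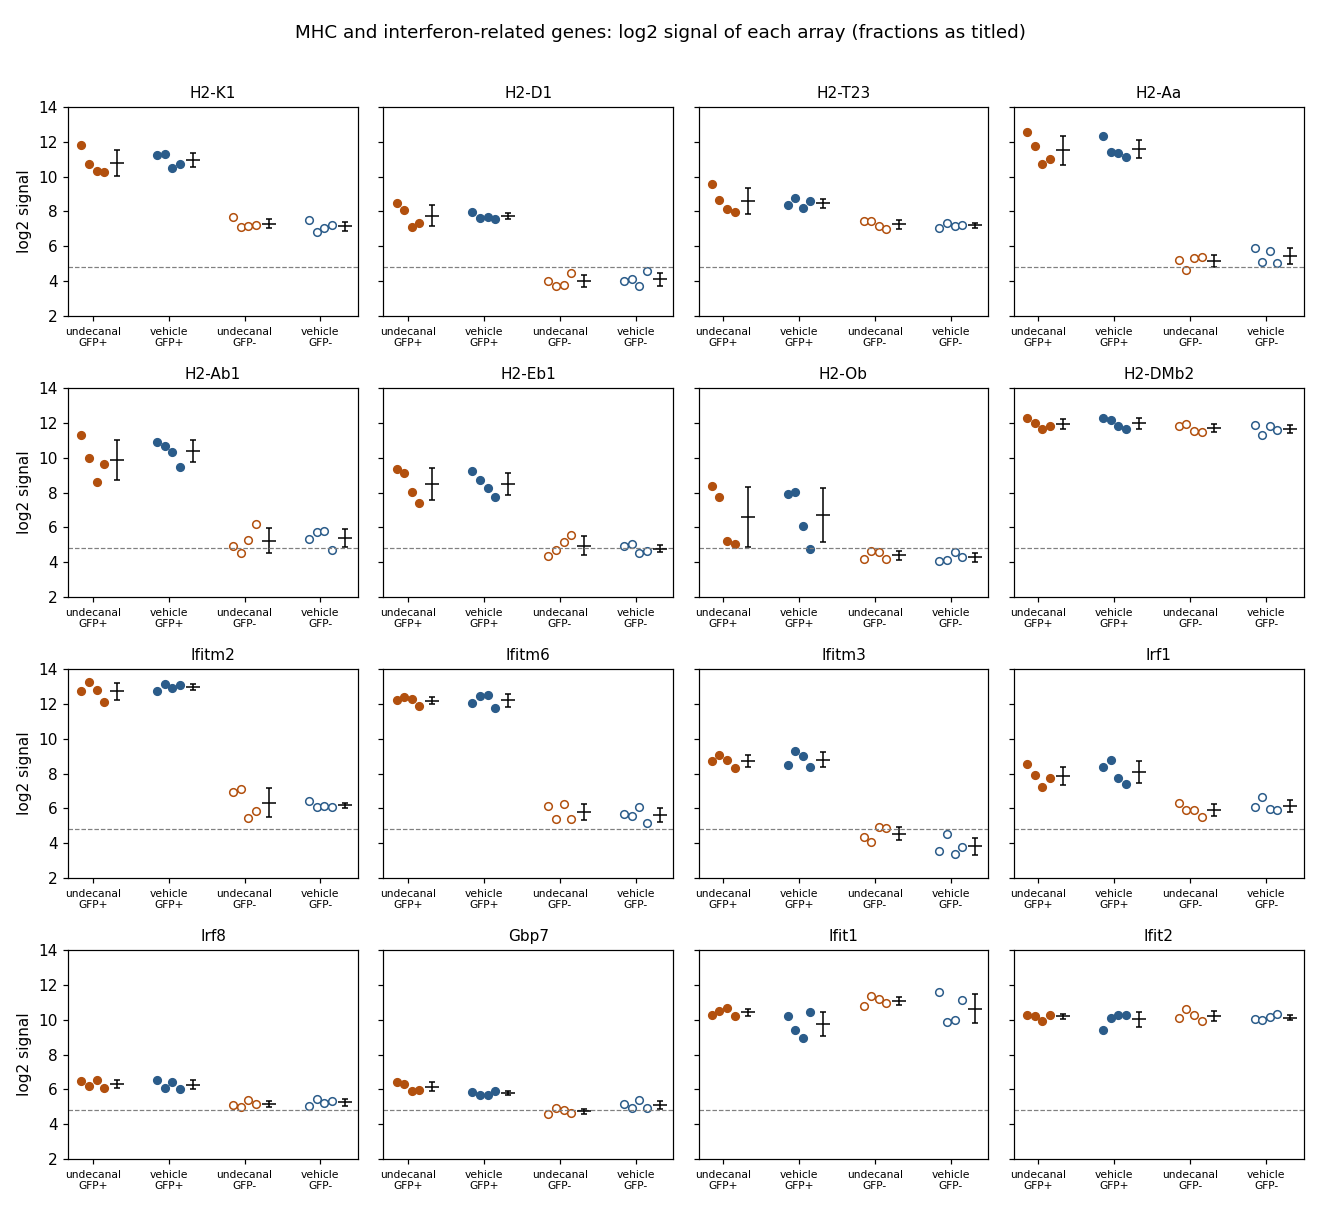
Log2 signal of 16 genes of the set in each array (vertical axis), with undecanal arrays in orange and vehicle arrays in blue, arrays titled GFP+ filled and those titled GFP- open; black marks are the group mean with its SD (n = 4) and the dashed line is the background level of 4.80. The fractions separate for H2-K1, H2-Aa, Ifitm2 and Ifitm6, while H2-DMb2, Ifit1 and Ifit2 lie above 8 in all groups.

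Markers of blood cells moved with the MHC genes between the fractions. All 12 neutrophil markers and all 11 measured monocyte and macrophage markers were higher in the arrays titled GFP+ with both agents. The summed linear signal of the neutrophil list ran from 263000 to 411500 in undecanal and from 264100 to 443700 in vehicle arrays titled GFP+, against 299 to 460 in undecanal and 349 to 526 in vehicle arrays titled GFP-. That of the monocyte list ran from 3988 to 10210 in undecanal and from 5117 to 8948 in vehicle arrays titled GFP+, against 223 to 285 in undecanal and 201 to 297 in vehicle arrays titled GFP-. Of the dendritic cell list 5 of 12 were called higher with either agent (and Xcr1 lower in vehicle pools), of the T and NK cell list 5 of 10, and of the B cell list 3 of 9. Fewer cells of a type and less RNA per cell cannot be told apart in such sorted bulk samples, and the part of these cells in the differences of the MHC and interferon-related genes was not tested.

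Other cell types of the mucosa moved less uniformly. Over all probe sets 8.83% were called higher and 4.36% lower in undecanal pools, and 8.82% and 5.12% in vehicle pools. The counts of 1 of 9 and 1 of 10 below are near the share called higher. Of the sustentacular cell list 4 of 8 were higher with both agents, of the immature neuron list 5 of 10 in undecanal and 6 of 10 in vehicle pools, and 4 of 16 mature neuron markers were lower with either agent. Omp, the marker of mature olfactory neurons, averaged 18.80 to 18.85 in all groups. Of the endothelial list 1 of 9 was higher in undecanal and 0 of 9 in vehicle pools, with Cdh5, Kdr and Cldn5 below background in all groups. Of the horizontal basal cell list 1 of 10 was higher in undecanal and 2 of 10 in vehicle pools, with Krt5, Krt14 and Trp63 below background throughout.

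Pools differed among the arrays titled GFP+, for some genes of the set and for B cell markers. Cd79a, a subunit of the B cell receptor complex, read 10.55, 9.47, 5.78 and 6.21 in undecanal pools 1 to 4 and 9.88, 10.18, 7.23 and 5.99 in vehicle pools 1 to 4. Ms4a1, which encodes CD20, read 6.79, 5.28, 4.13 and 4.08 in undecanal and 5.74, 5.94, 4.13 and 3.60 in vehicle pools. As for H2-Ob, pools numbered 1 and 2 were above pools numbered 3 and 4 with either agent. Among the class II genes H2-Aa, H2-Ab1, H2-Eb1, H2-Oa, H2-DMa, H2-DMb1 and H2-DMb2 had this order too. So did H2-K1, H2-Q4 and H2-Q5 of class I, Irf1, and Gbp9, which had no group mean above background. How many of all probe sets have this order was not counted. For H2-DMb1 the order was slight, since vehicle pools 2 to 4 lay between 11.16 and 11.18. It was slight in vehicle pools for other class II genes too. H2-DMa read 6.587 in pool 1 and 6.585 in pool 3. In pools 2 and 3 H2-Oa read 4.679 and 4.670, and H2-Aa 11.42 and 11.38. H2-D1, Irf8 and Ifitm6 were among the genes without this order in vehicle pools. The 8 B cell markers other than Ebf1, which olfactory neurons also express, summed to 239 to 3074 in undecanal and 237 to 1928 in vehicle arrays titled GFP+ and to 108 to 189 in undecanal and 98.5 to 139 in vehicle arrays titled GFP-. Ebf1 was set aside after its level was seen. The 4 class II chains summed to 2318 to 9377 in undecanal and 3222 to 7766 in vehicle arrays titled GFP+.

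The comparison was repeated without the pools numbered 1 and 2, which leaves 2 arrays a group. These pools were chosen because H2-Ob and the B cell markers were seen to be high in them, so the values without them describe the other pools and are no test of a part of B cells. Without them 14 of 76 genes were called higher in undecanal pools and 14 in vehicle pools, and 0 lower in either. The share of all probe sets called without these pools was not counted. H2-Aa differed by 5.49 in undecanal and 5.88 in vehicle pools (limma adjusted p = 7.37e-06 and 4.44e-06), H2-Ab1 by 3.37 and 4.68 (0.00386 and 0.000463) and H2-Eb1 by 2.35 and 3.42 (0.0011 and 0.000102). H2-Ob, one of the genes that the choice rests on, differed by 0.72 in undecanal and 0.98 in vehicle pools. The calls that ended were those of Gbp4, H2-DMa, H2-Ke6, H2-Oa, H2-Ob, H2-Q2, H2-Q4, H2-T-ps, Ifit1bl2 and Irf7 in undecanal pools, and of Gbp7, H2-M10.6, H2-Oa, H2-Ob, H2-Q2, H2-T-ps, Irf7 and Irf8 in vehicle pools. For several of these the difference itself moved little: in undecanal pools that of Ifit1bl2 was -1.05, of H2-Ke6 -0.82, of Irf7 1.35 and of H2-T-ps 1.10, and in vehicle pools that of H2-M10.6 was -1.10 and of Irf8 0.97. The differences of H2-Ob in both agents and of H2-Oa (0.56) and H2-Q4 (1.10) in undecanal pools were over 1.5 times smaller as log2 values than with all pools.

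**Figure D3:**
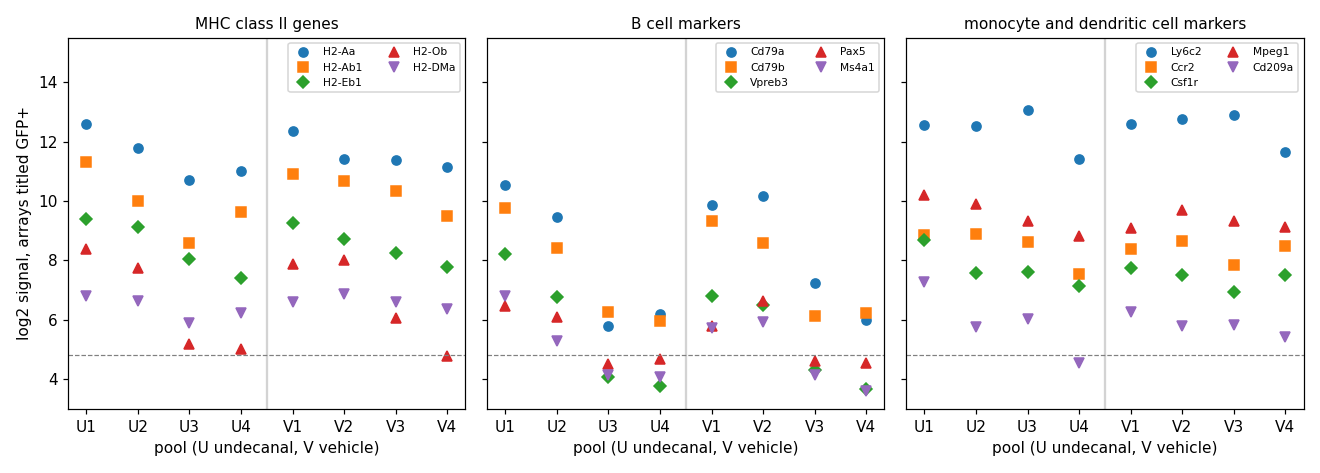
Log2 signal (vertical axis) in the 8 arrays titled GFP+, by pool (U1 to U4 undecanal, V1 to V4 vehicle), of 5 class II genes, 5 B cell markers and 5 monocyte or dendritic cell markers; each symbol is 1 gene and the dashed line is the background level. H2-Ob and the B cell markers are high in pools U1, U2, V1 and V2 and low in U3, U4 and V4, while Ly6c2 stays above 11 in every pool.

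Genes that supply and load MHC peptides moved in part. For comparison, 8.83% of all probe sets were called higher and 4.36% lower in undecanal pools, and 8.82% and 5.12% in vehicle pools. The counts of the lists below were not tested against these shares. Of 14 measured genes of the class I pathway, 3 were called higher in the arrays titled GFP+ of undecanal pools and 4 in those of vehicle pools, and 0 lower. Beside B2m these were Psmb8, an immunoproteasome subunit, Psme1, a proteasome activator (1.04 in undecanal and 1.17 in vehicle pools), and in vehicle pools Tap1, a subunit of the peptide transporter (0.60 with limma adjusted p = 0.114 in undecanal pools, 1.00 with 0.00615 in vehicle pools). Psmb8 had no mean above background in arrays titled GFP-, where all 4 vehicle arrays lay below it, so it was at least 2.61-fold higher in vehicle arrays titled GFP+, and its measured difference in undecanal pools was 1.45. The chaperones and loading factors Calr, Canx, Pdia3 and Tapbp had group means from 12.10 to 16.44 and were not called. Of 7 measured genes of the class II pathway, Ifi30, a lysosomal thiol reductase (4.52 in undecanal and 5.71 in vehicle pools), and Ctss, which encodes cathepsin S (4.40 and 4.48), were higher. Ciita, the class II transactivator, averaged 5.49 and 5.78 in undecanal and vehicle arrays titled GFP+ and 5.41 and 5.35 in undecanal and vehicle arrays titled GFP-, and did not pass the test (limma adjusted p = 0.898 and 0.341). Cd74 and Nlrc5 were not analysed here.

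The Ifitm genes encode small membrane proteins that block the entry of viruses. Ifitm5, Ifitm2, Ifitm1, Ifitm3 and Ifitm6 lie next to each other in that order on chromosome 7 with 0 other protein-coding genes between them in RefSeq, and Ifitm7 lies on chromosome 16. The windows of Ifitm2 (chr7:140955912-140956211, minus strand) and Ifitm3 (chr7:141010695-141010994, minus strand) are shown because both hold GAAANNGAA, the core bound by interferon regulatory factors, searched on both strands and shown in capitals together with TTCNNNGAA, the form of a Stat dimer site, and ATTGG. In Ifitm3 the core stands at bases 253 and 270 and the Stat form at base 264, which overlaps the second core, and in Ifitm2 the core stands at base 205 and the inverted CCAAT box at base 160.
Ifitm2: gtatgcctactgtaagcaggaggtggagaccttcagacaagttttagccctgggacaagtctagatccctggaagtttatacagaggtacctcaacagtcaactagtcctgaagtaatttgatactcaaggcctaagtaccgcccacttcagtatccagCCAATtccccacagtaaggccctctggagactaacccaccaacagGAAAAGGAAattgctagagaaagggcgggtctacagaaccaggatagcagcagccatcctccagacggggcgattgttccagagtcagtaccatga
Ifitm3: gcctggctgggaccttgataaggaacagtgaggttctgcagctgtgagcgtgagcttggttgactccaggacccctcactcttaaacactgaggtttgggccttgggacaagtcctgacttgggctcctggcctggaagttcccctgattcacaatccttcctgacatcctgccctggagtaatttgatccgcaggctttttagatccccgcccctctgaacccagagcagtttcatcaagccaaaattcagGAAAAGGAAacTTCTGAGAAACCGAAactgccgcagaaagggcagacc
The core was found in 2 of 6 Ifitm genes, in 18 of the 63 genes of the set with a window and in 26.0% of their windows, against 8.56% of all windows. The Stat form was found in 12 of the 63 genes and in 16.4% of their windows, against 8.30% of all windows.

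Ifitm2 and Ifitm6 had the largest fraction differences of the set. Ifitm2 read 12.76, 13.28, 12.81 and 12.10 in undecanal and 12.72, 13.16, 12.93 and 13.08 in vehicle arrays titled GFP+, against 6.93, 7.12, 5.44 and 5.84 in undecanal and 6.41, 6.07, 6.15 and 6.06 in vehicle arrays titled GFP-. The difference of Ifitm2 was 6.40 in undecanal pools (SE 0.31, limma adjusted p = 7.81e-11), an 84.7-fold difference, and 6.80 in vehicle pools (SE 0.31, limma adjusted p = 3.26e-11). Unlike H2-Ob, it was as high in pools numbered 3 and 4 of the vehicle arrays as in pools numbered 1 and 2.

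Ifitm6 read 12.25, 12.38, 12.29 and 11.87 in undecanal and 12.03, 12.49, 12.53 and 11.76 in vehicle arrays titled GFP+, against 5.39 to 6.23 in undecanal and 5.13 to 6.09 in vehicle arrays titled GFP-. Its difference was 6.40 in undecanal and 6.58 in vehicle pools (SE 0.243 each, limma adjusted p = 4.42e-12 and 3.35e-12). Without the pools numbered 1 and 2 the difference of Ifitm2 was 6.82 and 6.90, and that of Ifitm6 was 6.25 and 6.53, in undecanal and vehicle pools.

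Ifitm3 read 8.72, 9.07, 8.80 and 8.30 in undecanal and 8.49, 9.32, 9.01 and 8.39 in vehicle arrays titled GFP+, against 4.36, 4.09, 4.92 and 4.85 in undecanal and 3.58, 4.51, 3.39 and 3.80 in vehicle arrays titled GFP-. The vehicle arrays titled GFP- all lay below background, so the vehicle difference of 4.98 (limma adjusted p = 2.87e-10) was at least 16-fold against that level, and the measured difference in undecanal pools was 4.17 (SE 0.267, limma adjusted p = 2.37e-09). Ifitm1 read 6.53, 7.27, 6.64 and 6.19 in undecanal and 6.61, 7.55, 6.83 and 7.03 in vehicle arrays titled GFP+, against 4.63 to 5.25 in undecanal and 4.24 to 5.31 in vehicle arrays titled GFP-. Its groups did not overlap either, with a difference of 1.77 in undecanal and 2.19 in vehicle pools (limma adjusted p = 8e-05 and 6.4e-06). Ifitm5 and Ifitm7 lay below background in all groups and were not called.

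Interferon regulatory factors differed among themselves. Irf1, Irf7 and Irf8 were higher in the arrays titled GFP+ with both agents, and the other 8 Irf genes were not called. Irf1, a factor induced by interferon gamma, read 8.52, 7.94, 7.25 and 7.75 in undecanal and 8.41, 8.79, 7.76 and 7.42 in vehicle arrays titled GFP+, against 6.32, 5.88, 5.88 and 5.49 in undecanal and 6.05, 6.65, 5.99 and 5.90 in vehicle arrays titled GFP-. The difference of Irf1 was 1.97 in undecanal and 1.95 in vehicle pools (SE 0.298 each, limma adjusted p = 9.68e-05 and 0.00011).

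Irf8, which directs the development of monocytes, dendritic cells and B cells, read 6.47, 6.18, 6.55 and 6.10 in undecanal and 6.57, 6.08, 6.45 and 6.01 in vehicle arrays titled GFP+, against 4.99 to 5.39 in undecanal and 5.02 to 5.48 in vehicle arrays titled GFP-. The fractions did not overlap, and the difference was 1.17 in undecanal and 1.02 in vehicle pools (SE 0.165 each, limma adjusted p = 4.57e-05 and 0.000191). Irf7, which acts in the induction of interferon alpha, read 4.51, 4.72, 4.92 and 4.07 in undecanal and 4.34, 4.16, 4.38 and 5.04 in vehicle arrays titled GFP+, against 2.43 to 3.86 in undecanal and 2.81 to 3.77 in vehicle arrays titled GFP-. No group mean of Irf7 exceeded background. Its measured difference was 1.47 in undecanal and 1.28 in vehicle pools (limma adjusted p = 0.00145 and 0.00486), and the vehicle call ended without vehicle pool 4 (1.03, limma adjusted p = 0.0548).

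Irf3, Irf9 and Irf2 were above background in all groups with no call: Irf9, which acts in the response to type I interferons, had group means from 6.80 to 6.94. Irf3 had group means from 7.56 to 7.96 and Irf2 from 9.31 to 9.83. The related Irf2bp1, Irf2bp2 and Irf2bpl had group means from 8.37 to 8.58, from 11.94 to 12.11 and from 13.46 to 13.71, and their fraction differences lay between -0.25 and -0.08. Irf4, known from B and plasma cells, was below background in all group means and its difference of 0.78 in either agent was not called (limma adjusted p = 0.193 in undecanal and 0.183 in vehicle pools).

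Gbp7, a guanylate-binding GTPase induced by interferon gamma, read 6.40, 6.33, 5.93 and 5.96 in undecanal and 5.85, 5.70, 5.66 and 5.89 in vehicle arrays titled GFP+, against 4.58, 4.91, 4.81 and 4.66 in undecanal and 5.17, 4.96, 5.40 and 4.94 in vehicle arrays titled GFP-. Agents did not overlap in either fraction, nor fractions with either agent, and the undecanal arrays were the highest in one fraction and the lowest in the other. The difference between fractions was 1.41 in undecanal pools (SE 0.152, limma adjusted p = 1.77e-06) and 0.66 in vehicle pools (SE 0.152, limma adjusted p = 0.0053). The mean of undecanal arrays titled GFP-, 4.74, was not above background, with 2 of its 4 arrays below it, so the undecanal difference and the interaction given below rest on a group at that level. The vehicle call of Gbp7 ended without vehicle pool 4 (0.56, limma adjusted p = 0.0559) and with 2 of 3 other scalings. Gbp4 ranged from 4.81 to 6.09 in undecanal and 4.31 to 5.56 in vehicle arrays titled GFP+, against 4.35 to 4.69 in undecanal and 4.60 to 5.13 in vehicle arrays titled GFP-, and was called in undecanal pools only (limma adjusted p = 0.0318). All 4 undecanal arrays titled GFP- of Gbp4 lay below background, so its measured difference of 0.91 was at least 1.61-fold against that level. That call ended without undecanal pool 1, 2 or 3 (measured differences 0.84, 0.90 and 0.72, limma adjusted p = 0.145, 0.106 and 0.167). Of the 6 Gbp genes 3 were above background in some group, and Gbp2, Gbp3, Gbp8 and Gbp9 were not called.

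The Ifit genes bind viral RNA and halt its translation. Ifit2, Ifit3, Ifit1bl1, Ifit3b, Ifit1bl2 and Ifit1 lie next to each other in that order on chromosome 19, with 0 other protein-coding genes between them. The window of Ifit1 (chr19:34640639-34640938, plus strand) is shown since 5 of 6 Ifit genes hold the core, as do 3 of 3 Gbp genes with a window; here the core, read on the other strand, stands in capitals at bases 142, 148 and 167, and the first 2 overlap.
Ifit1: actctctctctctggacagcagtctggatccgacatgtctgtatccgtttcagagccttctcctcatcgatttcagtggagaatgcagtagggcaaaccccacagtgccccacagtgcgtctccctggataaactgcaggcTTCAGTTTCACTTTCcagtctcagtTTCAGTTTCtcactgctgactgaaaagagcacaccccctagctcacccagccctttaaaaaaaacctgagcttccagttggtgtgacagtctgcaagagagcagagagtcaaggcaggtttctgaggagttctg
Only Ifit1, Ifit2 and Ifit1bl2 were above background in every group. Ifit2 averaged 10.19 ± 0.162 and 10.02 ± 0.41 in undecanal and vehicle arrays titled GFP+ and 10.24 ± 0.29 and 10.13 ± 0.137 in undecanal and vehicle arrays titled GFP- (SD, n = 4 each), and its fractions overlapped.

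Ifit1 read 10.30, 10.51, 10.68 and 10.22 in undecanal and 10.24, 9.40, 8.97 and 10.42 in vehicle arrays titled GFP+, against 10.82, 11.38, 11.18 and 10.96 in undecanal and 11.57, 9.87, 9.98 and 11.16 in vehicle arrays titled GFP-. In all 8 pools the GFP+ titled array read lower than its GFP- titled partner, and vehicle pools 2 and 3 were low in both fractions. The difference of Ifit1 was -0.66 in undecanal and -0.89 in vehicle pools (SE 0.353 each, limma adjusted p = 0.277 and 0.115). With the pool as a block it was called lower in both, with an SE of 0.156 and limma adjusted p = 0.015 and 0.00236. Ifit1bl2 read lower in the GFP+ titled array of all 8 pools too, with a difference of -1.04 in undecanal pools (limma adjusted p = 0.0321) and -0.56 in vehicle pools (limma adjusted p = 0.28), and the vehicle difference was called with the pool as a block (limma adjusted p = 0.0356). The undecanal call of Ifit1bl2 ended without any 1 of the undecanal pools 1 to 4 (limma adjusted p = 0.0631, 0.168, 0.0931 and 0.111, differences -1.18, -0.91, -1.08 and -1.01).

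**Figure D4:**
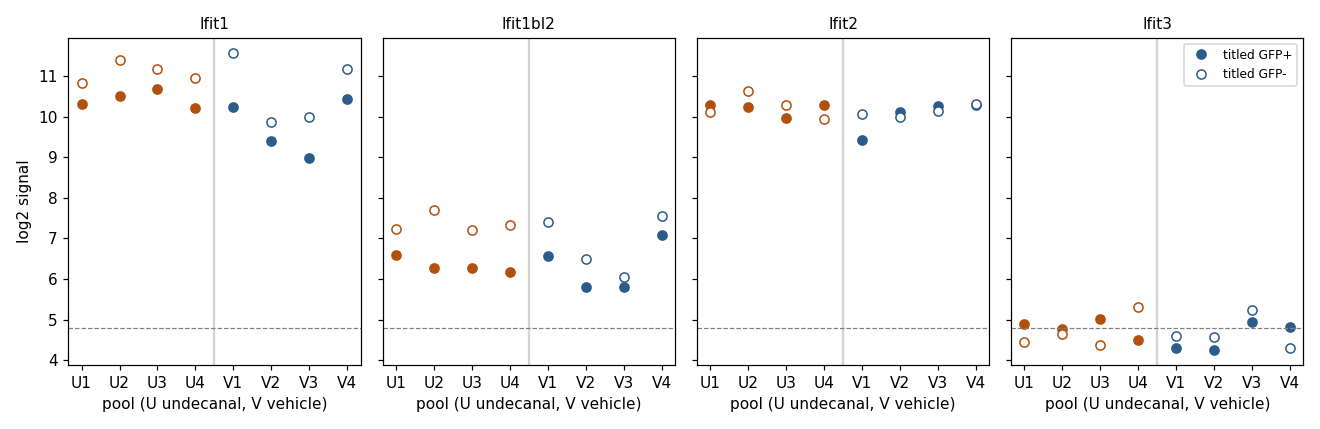
Log2 signal (vertical axis) of 4 Ifit genes in each pool (U1 to U4 undecanal in orange, V1 to V4 vehicle in blue), arrays titled GFP+ filled and arrays titled GFP- open; the dashed line is the background level. For Ifit1 and Ifit1bl2 the array titled GFP+ lies below its partner in all 8 pools, and vehicle pools 2 and 3 are low in both fractions.

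Active Oas enzymes make 2',5'-linked oligoadenylates, the messenger that activates the nuclease RNase L. Not every Oas gene of the set need encode one, and RefSeq lists Oas1b as a pseudogene. Of the 12 Oas genes 0 were called in either fraction comparison, and 3, namely Oas1b, Oas1c and Oasl2, were above background in some group. The share of all probe sets called was 8.83% higher and 4.36% lower in undecanal pools, and 8.82% and 5.12% in vehicle pools. A count of 0 among 12 genes is not far from these shares and is no result about the family. Oas1c read 5.93, 5.74, 5.25 and 5.64 in undecanal and 5.53, 5.46, 5.63 and 5.41 in vehicle arrays titled GFP+, against 6.15, 5.83, 6.34 and 6.09 in undecanal and 5.54, 5.77, 5.91 and 5.57 in vehicle arrays titled GFP-. Its difference of -0.46 in undecanal and -0.19 in vehicle pools was not called (limma adjusted p = 0.066 and 0.484), though with quantile normalization it was (-0.80 and -0.51, limma adjusted p = 0.000968 and 0.0269), and centring on the mature neuron list turned the vehicle value to 0.07.

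H2-Ke6, the dehydrogenase gene of the H2 region, ranged from 5.89 to 6.93 in undecanal and 6.70 to 7.53 in vehicle arrays titled GFP+, against 6.92 to 7.48 in undecanal and 6.87 to 7.49 in vehicle arrays titled GFP-. It was called lower in undecanal pools (-0.73, limma adjusted p = 0.0415) and not in vehicle pools (-0.20, limma adjusted p = 0.629). The undecanal call ended with the pool as a block (limma adjusted p = 0.0719), without undecanal pool 2 (-0.61) or 4 (-0.50) and without vehicle pool 1, 2 or 3 (limma adjusted p = 0.0518, 0.0509 and 0.0504).

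The other genes of the interferon pathway were read from lists. Over all probe sets 8.83% were called higher and 4.36% lower in undecanal pools, and 8.82% and 5.12% in vehicle pools. A single call among 19 or 11 genes is near these shares and is no result about the list. Of 19 measured interferon genes 0 were called in vehicle pools and 1, Ifna7, was lower in undecanal pools (-0.58), with all its group means below background. Only Ifna5 among them was above background in all groups (group means 7.28 to 7.84). Of 11 measured receptors and signal transducers 1 was called, higher with both agents: Ifngr1, the ligand-binding chain of the interferon gamma receptor, by 1.74 in undecanal and 1.68 in vehicle pools (SE 0.252 each, limma adjusted p = 6.13e-05 and 8.84e-05). Ifnar1, Ifnar2, Ifngr2 and Stat2 were above background in all groups, with differences from -0.27 to 0.36 that were not called. Of 13 measured sensors and adaptors Tlr7, a receptor for RNA in endosomes, and its adaptor Myd88 (1.01 in undecanal and 0.90 in vehicle pools) were higher, and of 8 inhibitors Ptpn6 (2.50 in undecanal and 2.33 in vehicle pools) and Socs3 were. Tlr7 and Socs3 had no mean above background in arrays titled GFP-. Against the background level Tlr7 was at least 7.78-fold higher in undecanal pools, with a measured difference of 3.09 in vehicle pools, and Socs3 was at least 1.30-fold higher in undecanal and 1.19-fold in vehicle pools.

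Of 41 other interferon-induced genes 15 were higher and 1 lower in undecanal pools, and 14 higher and 1 lower in vehicle pools. Among all probe sets the shares were 8.83% higher and 4.36% lower in undecanal pools, and 8.82% and 5.12% in vehicle pools. Ly6e, a membrane-anchored protein that blocks coronavirus entry, averaged 14.88 and 15.15 in undecanal and vehicle arrays titled GFP+ and 6.85 and 7.37 in undecanal and vehicle arrays titled GFP-. Slfn2 (3.00 and 2.65), Isg20 (1.73 and 2.16) and Bst2 (1.86 and 1.78) were also higher in undecanal and vehicle pools. So was Trim30a, by at least 1.30-fold and 1.36-fold against the background level, below which all its arrays titled GFP- lay. Isg15, a ubiquitin-like protein strongly induced by type I interferons, averaged 3.82 and 3.62 in undecanal and vehicle arrays titled GFP+ and 3.16 and 3.19 in undecanal and vehicle arrays titled GFP-, below background in all, and was not called (limma adjusted p = 0.0524 and 0.228). Mx1, Igtp and Iigp1 were not called either, and Cmpk2 averaged 12.40 to 12.45 in all groups. The median difference of this list was 0.34 in undecanal and 0.23 in vehicle pools.

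Exposure to undecanal was compared with vehicle within each fraction. Of the 76 genes 0 were called in arrays titled GFP+ and 0 in arrays titled GFP-. Over all probe sets 0.0045% (1 probe set) and 0% were called. Differences of the 76 genes, undecanal minus vehicle, ran from -0.56 to 0.67 in arrays titled GFP+ (median -0.01, all probe sets 0.01) and from -0.62 to 0.73 in arrays titled GFP- (median 0.05, all probe sets 0.00), with a median standard error of 0.231. At an unadjusted p under 0.05 there were 2 of 76 genes, or 2.63%, in arrays titled GFP+, against 2.72% of all probe sets, and 6, or 7.89%, in arrays titled GFP-, against 4.12%. Among the genes with large fraction differences, H2-Aa averaged 11.52 ± 0.84 in undecanal and 11.57 ± 0.527 in vehicle arrays titled GFP+, and Ifitm6 averaged 12.20 ± 0.223 and 12.20 ± 0.372 (SD, n = 4 each).

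The 4 genes with the smallest unadjusted p in arrays titled GFP+ were Gbp7, higher in all 4 undecanal arrays than in any vehicle array (0.38, SE 0.152), H2-Ke6 (-0.52, SE 0.227), Oas1b (-0.50, SE 0.251) and Ifit1 (0.67, SE 0.353), all with a limma adjusted p of 0.999. Oas1b read 5.51, 5.33, 5.80 and 5.65 in undecanal and 5.44, 6.42, 6.60 and 5.84 in vehicle arrays titled GFP+, which overlapped.

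In arrays titled GFP- the smallest were those of H2-M10.6 (-0.62, SE 0.182), Ifitm3 (0.73, SE 0.267), Oas1c (0.40, SE 0.159) and H2-M9 (0.38, SE 0.15), all with a limma adjusted p of 1. The 4 undecanal arrays of H2-M10.6 all lay below background and below the 4 vehicle arrays, so that against the background level it was at least 1.10-fold lower, and those of Ifitm3 straddled background with an overlap between agents. H2-M9 read 3.58, 3.42, 3.02 and 3.00 in undecanal and 2.83, 2.95, 2.91 and 2.83 in vehicle arrays titled GFP-, far below background.

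**Figure D5:**
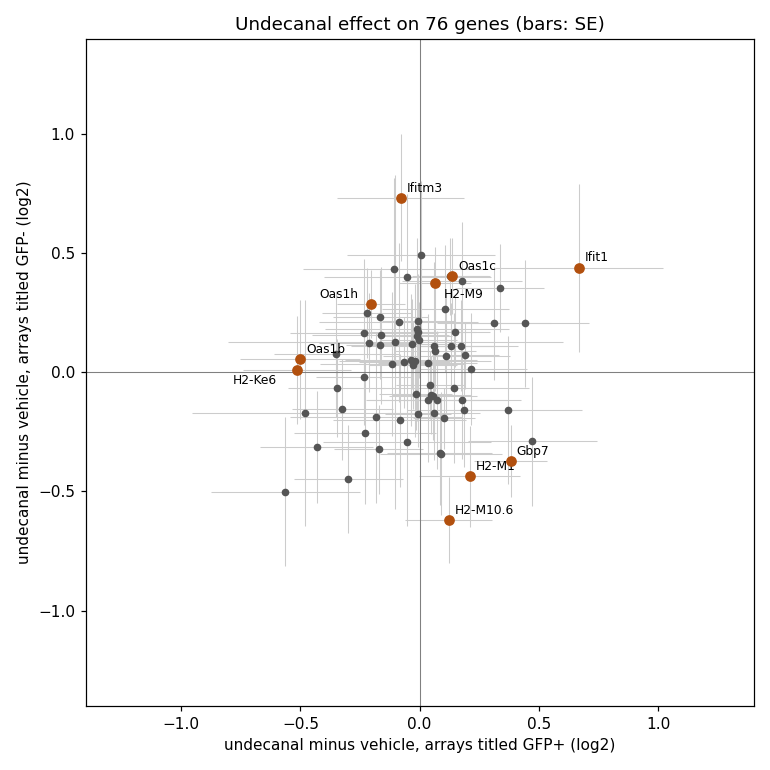
Undecanal minus vehicle in arrays titled GFP+ (horizontal axis) against the same in arrays titled GFP- (vertical axis) for the 76 genes, on the log2 scale, with standard errors; orange points are the named genes with the smallest p. No gene lies beyond 0.8 on either axis, and none passed an adjusted p of 0.05.

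Whether the effect of undecanal differed between the fractions was tested as an interaction, which also is the fraction difference in undecanal pools minus that in vehicle pools. Of the 76 genes 0 were called, as for all probe sets (0%), and values ran from -0.81 to 0.76. At an unadjusted p under 0.05 there were 5 genes, or 6.58%, against 2.63% of all probe sets. The smallest p were those of Gbp7 (0.75, SE 0.215), H2-M10.6 (0.74, SE 0.257), Oas1h (-0.49, SE 0.201) and H2-M1 (0.65, SE 0.299), all with a limma adjusted p of 1. Gbp7 was 0.38 higher with undecanal in arrays titled GFP+ and 0.37 lower (-0.37) in arrays titled GFP-, with no overlap of agents in either fraction. Oas1h read 2.29, 2.28, 2.09 and 2.40 in undecanal and 2.49, 2.75, 2.40 and 2.22 in vehicle arrays titled GFP+, against 2.28 to 2.45 in undecanal and 1.94 to 2.37 in vehicle arrays titled GFP-, and H2-M1 ranged from 2.32 to 3.58 over all 16 arrays, so both lay far below background.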

How the data were processed

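Expression was measured on Clariom S arrays of 16 sorted samples. The authors deposited 1 table of log2 signals, 1 value per probe set and array, and Affymetrix Expression Console is the tool that the submitters' processing notes name. The summary method, the program version and the build behind the probe annotation: not given in the sources used here. Values ran from 1.67 to 19.71 and array medians from 5.89 to 6.34, and they were used without further scaling. Of 28846 probe sets, 6640 controls were left out. Genes were named from the platform annotation, which gave 1 gene for 19572 of the 22206 probe sets tested and none for 2634; all 76 genes of the set matched RefSeq by gene identifier.

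Group means were fitted with limma 3.58.1 in R 4.3.3 (lmFit, eBayes) over the 4 groups with no block. The fraction difference was tested for each agent, the undecanal effect in each fraction, and their interaction, with Benjamini-Hochberg adjustment over all 22206 probe sets and a threshold of 0.05. "At least" folds are taken against the background level where all arrays of the dim group lie below it. Values of single arrays are given by rule for up to 4 genes a role with the largest called fraction difference in vehicle pools and up to 4 with the smallest p in each undecanal comparison and the interaction; single-array values of other genes, Ms4a1 and Cd79a among them, were added after their values were seen. Genes of the set and all lists were chosen with earlier results of these data known.

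The same number and agent mark the 2 fractions of 1 pool of mice, so numbers pair fractions within an agent. Deviations from the group means of the 2 fractions correlated at 0.0502 to 0.271, above 0.1 in 6 of 8 pools. The labels do not say that a number pairs agents. Between arrays of the same number and fraction with different agents, deviations correlated at -0.0416 to 0.291, above 0.1 in 2 of 8 pairs. Whether pools of the same number share a batch was not tested. The alternatives were 3 scalings, a trended robust prior, array weights, a filter on dim probe sets, a higher background level, the row of lowest mean per gene, the groups of a comparison only, the pool as a block, each pool left out, and, added after the values were seen, pools 1 and 2 left out. In the main fit p-values measure the spread between arrays of a group, each from another pool. That fit does not use the pairing of fractions, and takes the 2 fractions of a pool as independent.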

Additional observations from a re-analysis of the deposited data

Results flagged for a closer look

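Among 304 groups of 4 arrays (76 genes in 4 groups), 12 had 1 array far from the other 3 relative to the spread of the group; chance gives about 5% of groups. In 5 of the 12 the group mean lay above background. Ifit2 was low in undecanal pool 3 titled GFP+ (9.954, others 10.241 to 10.297), and Irf5 was high there (5.733, others 4.953 to 5.085). H2-DMb1 was high in vehicle pool 1 titled GFP+ (11.478, others 11.162 to 11.176). H2-T-ps was high in undecanal pool 1 titled GFP- (5.720, others 5.015 to 5.081), and Oas1b in undecanal pool 4 titled GFP- (6.547, others 5.682 to 5.735). The other 7 had group means below background: H2-M5 in vehicle pool 2 titled GFP+ (2.939), Ifitm5 in undecanal pool 1 titled GFP- (3.034), Oas1h in undecanal pool 4 titled GFP- (2.283), and in vehicle arrays titled GFP- H2-Q2 in pool 2 (1.810), H2-T3 in pool 3 (5.595), H2-M10.4 in pool 2 (3.788) and H2-Oa in pool 1 (3.716).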

How the results depend on the processing

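Of 46 called fraction differences, 28 were called in all 18 alternative settings in which they could be computed, 18 lost the call in at least 1, and 0 changed sign while called. The setting with the row of lowest mean per gene could not differ from the main fit, since each gene had 1 probe set. The undecanal effects and the interaction had 0 calls in every setting. In undecanal pools the count of genes called lower, 2, was 21 with median centring, 0 when arrays were centred on mature neuron genes, and 0 without pools 1 and 2; the count called higher, 22, was 14 without pools 1 and 2. In vehicle pools the count called lower, 1, was 20 with median centring, 2 with quantile normalization, 2 with array weights, 3 with the pool as a replicate block and 0 without pools 1 and 2. Centring on the mature neuron list gave 28 higher in undecanal and 29 in vehicle pools, and the cause was not tested. That centring moved the median of all probe sets by 0.24 in undecanal and 0.26 in vehicle pools. The share of all probe sets called was not counted in any alternative setting. With 1 pool left out in turn, 19 to 22 genes were called higher and 0 to 2 lower in undecanal pools, 18 to 22 higher and 1 to 1 lower in vehicle pools, 0 to 0 in the undecanal effects and the interaction, and 42 to 46 genes were above background. Beyond the calls of Ifit1, Ifit1bl2 and H2-Ke6 given above, the pool as a replicate block added a call of H2-T10 in vehicle pools (0.49, limma adjusted p = 0.047). Quantile normalization ended the undecanal calls of H2-Ob (limma adjusted p = 0.0566), H2-T-ps (0.055) and Gbp4 (0.0562). For 33 of 76 genes no group mean lay above background, so their differences compare group means at or below that level.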
